A study of Mus musculus with 7 samples.

Results

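A set of 8183 genomic regions had a peak for LEF1 in all 3 libraries and for TCF1 in replicates 1 and 2, and no peak in TCF1 replicate 3. They were chosen by presence and absence in the deposited peak lists: peaks of the 6 antibody libraries on chromosomes 1 to 19 and X were merged wherever they overlapped by at least 1 bp. Merging gave 38215 regions, of which the chosen regions are 21.4% and the 10887 regions with a peak in all 6 libraries are the set they are compared with. TCF1 replicate 3 has the shortest list, with 11418 peaks against 22894 to 37632 in the other 5 libraries. Its depth relative to the control, read from the steps of the deposited fold enrichment, was 3.23, against 2.52 to 2.89 in the other 5. The control of each list is not given, so these values order the libraries by depth only if all 6 lists had the same control. A part of depth in its short list was not tested. Of the 8249 regions held by exactly 5 libraries, 99.2% lacked TCF1 replicate 3, while 11, 1 and 53 lacked only LEF1 replicate 1, 2 or 3 and 1 and 0 lacked only TCF1 replicate 1 or 2.

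All 6 libraries are CUT&RUN, in which an antibody guides a nuclease to a bound protein and the released DNA fragments are sequenced. The cells were wild-type mouse spleen CD8 T cells carrying the transgenic P14 T cell receptor and sorted as CD8+, Ly5.1+, CD44- and CD62L+, the surface pattern of naive cells. Antibody to LEF1 gave 3 libraries and antibody to TCF1, the product of Tcf7, gave 3. The labels give no ages and do not say whether replicates came from separate animals, so spread between replicates may be technical. An input control without antibody comes from another gate (CD8+, Ly5.1-, CD44+) and its peaks were not analysed here. So no peaks from cells without antibody stand beside those of the 6 libraries. Whether this input was the control behind their fold enrichments is not given. The P14 receptor fixes 1 specificity in these cells, which limits them as a model of a mixed repertoire.

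LEF1 and TCF1 are related high mobility group proteins that bind the same short DNA core and recruit beta-catenin or Groucho/TLE corepressors. Both act early in T cell development, and in CD8 T cells both are known for high levels in naive and stem-like cells and lower levels in effector cells. A peak list records where such a protein, or another protein it touches, was found often enough to pass a threshold. A region absent from a list may still hold protein below that threshold.

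Promoters of genes whose start lay in a chosen region are shown first, because the location of the regions relative to genes is the main result. The 4 sequences below are the promoters wholly inside the strongest chosen regions at gene ends, and the last 2 are promoters in all-6 regions that were weakest in the other 5 libraries. Each window runs from 250 bases before to 50 bases after the start, 5′ to 3′ on the gene's strand, from RefSeq on GRCm38.p6. Capitals mark CG dinucleotides (CpG), the sites of DNA methylation in mammals that are dense at many promoters.
Cd82 (chr2:93461802-93462101, minus strand): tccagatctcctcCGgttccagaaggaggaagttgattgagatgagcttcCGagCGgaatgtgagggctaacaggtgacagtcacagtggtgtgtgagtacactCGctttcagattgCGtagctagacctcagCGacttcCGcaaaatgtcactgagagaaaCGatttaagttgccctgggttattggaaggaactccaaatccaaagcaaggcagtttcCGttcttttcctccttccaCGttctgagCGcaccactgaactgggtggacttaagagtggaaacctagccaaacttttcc
Ier5 (chr1:155099587-155099886, minus strand): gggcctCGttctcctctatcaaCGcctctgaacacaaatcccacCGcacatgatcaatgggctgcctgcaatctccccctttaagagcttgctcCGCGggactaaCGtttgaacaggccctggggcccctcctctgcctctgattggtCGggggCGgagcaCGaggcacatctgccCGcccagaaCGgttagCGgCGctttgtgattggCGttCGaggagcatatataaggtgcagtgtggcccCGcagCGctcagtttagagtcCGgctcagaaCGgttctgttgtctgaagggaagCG
Xlr4b (chrX:73214083-73214382, plus strand): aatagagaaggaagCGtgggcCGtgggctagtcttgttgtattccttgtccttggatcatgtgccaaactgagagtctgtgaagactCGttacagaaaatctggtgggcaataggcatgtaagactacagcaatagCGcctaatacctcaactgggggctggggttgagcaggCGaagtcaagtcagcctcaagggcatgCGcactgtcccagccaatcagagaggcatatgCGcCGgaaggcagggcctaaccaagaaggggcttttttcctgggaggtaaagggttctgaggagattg
Ajm1 (chr2:25580050-25580349, minus strand): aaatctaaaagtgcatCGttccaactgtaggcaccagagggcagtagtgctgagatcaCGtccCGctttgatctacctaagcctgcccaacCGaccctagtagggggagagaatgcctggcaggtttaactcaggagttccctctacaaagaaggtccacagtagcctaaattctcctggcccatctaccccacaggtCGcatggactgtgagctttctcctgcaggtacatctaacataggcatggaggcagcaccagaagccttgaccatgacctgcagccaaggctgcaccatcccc
Hspd1 (chr1:55087883-55088182, minus strand): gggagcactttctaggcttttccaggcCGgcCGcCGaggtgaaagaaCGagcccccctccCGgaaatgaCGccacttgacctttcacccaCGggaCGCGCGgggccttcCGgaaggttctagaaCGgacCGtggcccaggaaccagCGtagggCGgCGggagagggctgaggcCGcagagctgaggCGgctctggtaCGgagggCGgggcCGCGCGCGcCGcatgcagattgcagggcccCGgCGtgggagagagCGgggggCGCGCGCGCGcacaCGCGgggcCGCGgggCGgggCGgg
Zfp169 (chr13:48513361-48513660, minus strand): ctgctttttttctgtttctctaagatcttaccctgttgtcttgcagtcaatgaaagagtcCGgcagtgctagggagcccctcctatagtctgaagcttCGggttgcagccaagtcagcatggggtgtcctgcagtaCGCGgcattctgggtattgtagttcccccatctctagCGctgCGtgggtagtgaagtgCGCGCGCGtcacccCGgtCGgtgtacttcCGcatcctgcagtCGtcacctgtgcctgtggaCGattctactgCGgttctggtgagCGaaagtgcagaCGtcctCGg

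The windows of Cd82, a tetraspanin of the cell membrane, and Ier5, an immediate early gene, hold 11 and 20 CpG. The Cd82 window does not hold the median peak summit (point of highest signal) of its region. Xlr4b, of an X-linked family with near-identical copies, holds 8 CpG, and reads of such copies can be misplaced. The window of Ajm1, a gene for a cell junction protein, holds 5 CpG and a copy of the TCF/LEF core CTTTGAT. Hspd1, encoding the mitochondrial chaperonin HSP60, holds 39 CpG, and Zfp169, encoding a zinc finger protein, holds 19. The Hspd1 and Zfp169 pair was chosen after their values were seen.

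The strength of a peak is given as the authors' fold enrichment, the signal at the summit over the local background, and as its rank percentile within its own list, where 0 is the strongest peak. Ranks depend on list length, so a rank in one list is not set against a rank in another; their mean over lists serves only to sort regions by strength. Strength decides whether a peak is called, so it is tied to the way the regions were chosen and is described without a test. The median fold enrichment of the chosen regions was 9.87, 14.03 and 8.48 in LEF1 replicates 1, 2 and 3, and 9.03 and 8.33 in TCF1 replicates 1 and 2. Regions of all 6 libraries had medians of 21.4, 29.8, 18.3, 21.0 and 18.9 in the same order. In each of the 5 lists the chosen regions were thus weaker by the median.

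**Figure D1:**
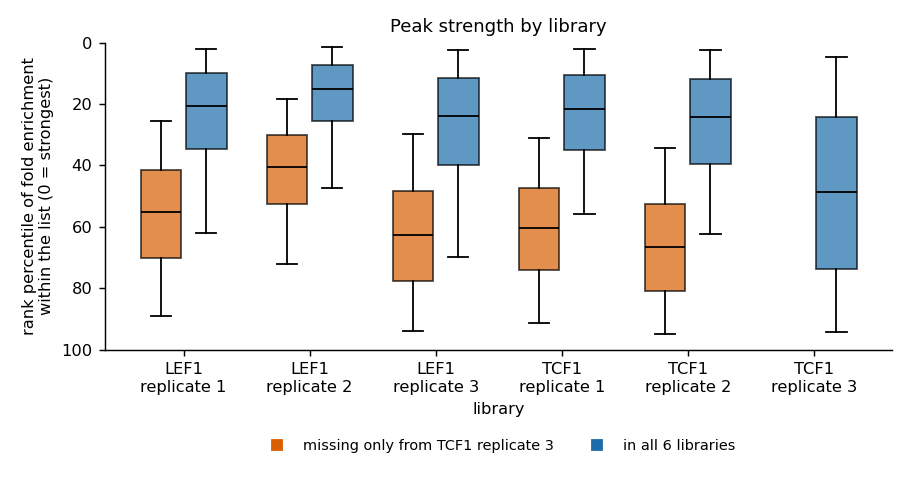
Rank percentile of fold enrichment within each library's list (0 is the strongest peak), for regions missing only from TCF1 replicate 3 and regions in all 6 libraries. Lines are medians, boxes quartiles and whiskers the 5th to 95th percentile of regions; chosen regions have medians of 40.5 to 66.7 against 15.1 to 24.3 for all-6 regions in the 5 libraries that hold both.

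The mean rank percentile over the 5 libraries had a median of 58.0 (quartiles 45.7 to 69.8) for the chosen regions and 21.7 (10.7 to 35.4) for all-6 regions. Only 1 chosen region lay in the strongest 10% of the list in each of the 5 libraries, and 41 lay in the strongest 25%, against 4758 all-6 regions. At the other end, 2195 lay in the weakest 50% of every one of the 5 lists. The merged interval of a chosen region was also narrower, with a median of 433 bp (quartiles 349 to 544) against 687 bp (539 to 927). The summits of the 5 libraries lay within 100 bp of each other in 71.3% of chosen regions and 75.5% of all-6 regions. Most chosen regions were therefore simple intervals, 7806 of them with 1 peak in each of the 5 libraries.

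The strongest chosen region lay at chr10:116613278-116613638 on GRCm38.p6, outside genes and 31.5 kb from Cnot2, which encodes a subunit of the CCR4-NOT complex that shortens mRNA tails. Its fold enrichment was 43.8, 63.2 and 35.0 in LEF1 replicates 1 to 3 and 42.0 and 38.0 in TCF1 replicates 1 and 2. The nearest TCF1 replicate 3 peak was 30.8 kb away, so no peak of the short list stood beside it. The next strongest, chr7:72307841-72308527, was 1.10 kb outside Mctp2, a gene for a calcium-binding membrane protein, with 38.0, 51.4 and 29.3 for LEF1 and 30.8 and 27.9 for TCF1. A TCF1 replicate 3 peak lay 0.94 kb from that region, closer than for any other of the 10 strongest. The other 8 were nearest to Scn4a, a muscle sodium channel gene, Frmd4a, the circadian factor gene Npas2, the cilium transport gene Wdr35, Cdc42se2, Mynn, the vesicle trafficking gene Sytl2 and Stk4, which encodes a Hippo pathway kinase. Their TCF1 replicate 2 values ran from 20.1 at Wdr35 to 25.5 at Scn4a, all above the all-6 median of 18.9 in that library.

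At gene ends the strongest chosen region covered the Cd82 start shown above (chr2:93461736-93462807). Its fold enrichments were 23.4, 34.9 and 21.7 for LEF1 and 28.0 and 23.4 for TCF1. The median of its 5 libraries' summits, at position 93462560, lay inside the gene and outside the printed window. The Cd82 region was followed by the regions at Ier5, Tufm, Xlr4b and Ajm1. The region 0.038 kb from Tufm, a gene for a mitochondrial translation factor, at chr7:126486965-126487391, had 19.9, 29.7 and 24.05 for LEF1 and 28.5 and 24.4 for TCF1. The Cd82 region was above the all-6 median in all 5 lists, and the Tufm region in LEF1 replicate 3 and both TCF1 lists but not in LEF1 replicates 1 and 2.

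At the boundary of the choice, the chosen region closest to a TCF1 replicate 3 peak lay 1.06 kb outside Dusp2 (chr2:127334990-127335689), a phosphatase gene, with fold enrichments of 5.69, 9.68 and 5.40 for LEF1 and 12.2 and 9.37 for TCF1. Its gap to that peak was 203 bp. Just across the boundary, a region inside Ext1 (chr15:53324795-53325168), a heparan sulfate synthesis gene, had 12.5, 17.1 and 10.5 for LEF1 and 11.0, 6.39 and 3.27 for TCF1. Its TCF1 replicate 3 peak passed with a −log10 q of 2.005, the lowest of that list. Of all-6 regions, 239 (2.20%) had a TCF1 replicate 3 −log10 q below 3, and of chosen regions 188 (2.30%) lay within 500 bp of a TCF1 replicate 3 peak.

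Location was not used in the choice. Each region was placed by the median position of its 5 libraries' summits. It was a gene end (1 kb or less from the start or the finish of a protein-coding gene), inside a gene or outside genes. The gene table gives no exons, so exons and introns are not told apart. Of the chosen regions, 1771 (21.6%, exact binomial 95% interval 20.8 to 22.6) were at a gene end, against 3359 all-6 regions (30.9%, 30.0 to 31.7). This difference of -9.21 percentage points had an odds ratio of 0.619 and a two-sided Fisher's exact p of 6.9e-46 after Benjamini-Hochberg adjustment over the 3 locations. Inside genes lay 45.7% against 39.7% (difference 5.95 points, adjusted p = 3e-16 by the same exact test) and outside genes 32.7% against 29.4% (3.26 points, adjusted p = 1.5e-06). Regions are not replicates, so these p-values and intervals cover counting error between regions only.

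Counted for the same regions at each library's own summits, the difference in the gene-end share was -9.19 to -9.27 points in the 5 libraries. The 5 summits spanned a median of 54 bp in chosen and 40 bp in all-6 regions, little beside 1 kb. These 5 values are therefore near-equal by construction and are not separate readings. The difference was negative on 19 of 20 chromosomes. On chromosome 13 the shares were 23.4% for the chosen regions and 23.1% for all-6 regions. Gene starts alone were counted as the promoter table gives them, which leaves out chromosome 18. By these, the shares were 19.4% of 7983 chosen regions and 28.8% of 10585 all-6 regions. Gene ends with no start within 1 kb made up 5.39% and 6.13%, so the sets lay further apart at starts. With lists cut to equal size, the difference was -5.53 points (Fisher's exact p = 0.00082 without adjustment).

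Among regions of like mean percentile, which is taken over 3 LEF1 and 2 TCF1 lists, the locations lay further apart. Of regions with a mean percentile of 40 to 50, 57.4% lacked a TCF1 replicate 3 peak. That share was 37.7% at gene ends, 63.4% inside genes and 66.5% outside genes. At a percentile of 60 to 70 it was 68.0% at gene ends, 91.4% inside genes and 93.8% outside genes, and in that class gene ends made up 21.3% of the chosen regions and 60.8% of the all-6 regions. Reweighting the all-6 regions to the strength of the chosen ones by this mean raised their gene-end share to 52.5%, a difference of -30.9 points. It leans on few weak all-6 regions, 93 at a percentile of 70 to 80 and 25 at 80 to 100. Strength over TCF1 replicates 1 and 2 alone gave -20.2 points, and reweighting by region width gave -18.2. The direction of each of these differences was the same, and the size ranged from -5.53 to -30.9 points. By class of TCF1 strength, the order was reversed only at a percentile of 0 to 20. There gene ends made up 32.1% of 28 chosen regions and 26.65% of 4731 all-6 regions. In every weaker class the chosen regions had the lower share. These classes use strength, which the choice also used, so they are given as a description.

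**Figure D2:**
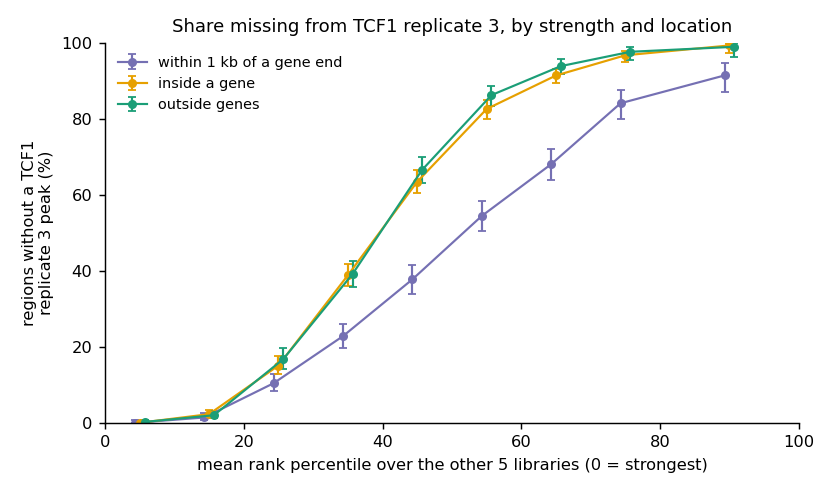
Percent of regions held by the other 5 libraries that had no peak in TCF1 replicate 3, against the region's mean rank percentile over those 5 libraries (0 is the strongest), by location. Points are classes of 10 percentile units (the last is 80 to 100) and bars are exact binomial 95% intervals; at 60 to 70 the share is 68.0% at gene ends, 91.4% inside genes and 93.8% outside.

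The location of regions missing from 1 list could also be read for every library once all lists were cut to the 11418 peaks with the highest −log10 q. TCF1 replicate 3 then still had the most, with 758 regions missing only there against 115 to 147 for the others. The gene-end share was 20.7% for TCF1 replicate 3, 18.3% for TCF1 replicate 1 and 19.05% for TCF1 replicate 2. For regions missing only from LEF1 replicate 1, 2 or 3 it was 51.8%, 57.5% and 34.7%, and for regions in all 6 equal lists 26.2%. The 3 TCF1 libraries thus lay below all 3 LEF1 libraries, with means of 19.3% ± 1.25 (SD, n = 3) and 48.0% ± 11.9 (SD, n = 3). The exact permutation test over libraries gave a two-sided p of 0.1, the smallest that 3 against 3 can give, and it was added after these shares were seen. Each TCF1 set required peaks in all 3 LEF1 lists, and each LEF1 set required peaks in all 3 TCF1 lists. The 6 sets thus share lists, so the SDs and the p do not measure spread between independent libraries.

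**Figure D3:**
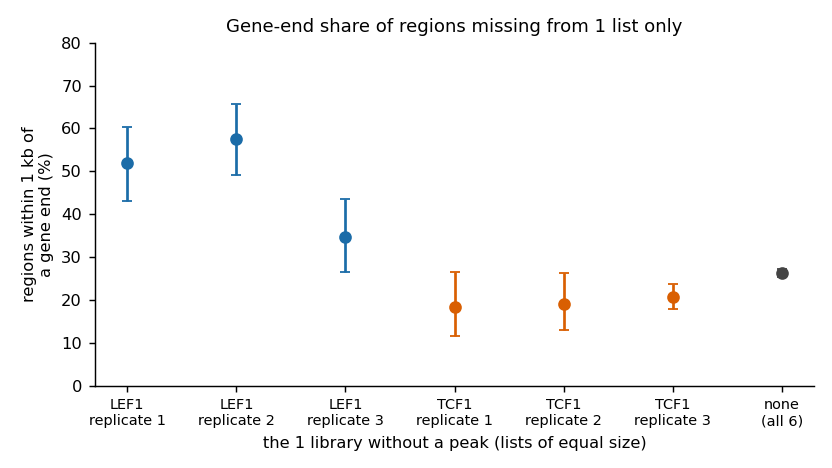
Percent of regions within 1 kb of a gene end among regions missing from 1 library only, with every list cut to the same length. Points are shares with exact binomial 95% intervals, grouped by the library that lacks the peak; the TCF1 points lie at 18.3% to 20.7% and the LEF1 points at 34.7% to 57.5%.

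Within each list, the strength of chosen regions at gene ends was set beside that of chosen regions outside genes, without a test. In LEF1 replicates 1, 2 and 3 the median fold enrichment was 8.98, 12.4 and 7.76 at gene ends and 10.3, 14.9 and 8.90 outside genes. In TCF1 replicates 1 and 2 it was 9.46 and 8.43 at gene ends and 8.93 and 8.33 outside genes. Gene ends were thus the weaker location in all 3 LEF1 libraries and not in either TCF1 library. Regions of all 6 libraries had the lower median fold enrichment at gene ends in every list, from 17.3 against 23.8 in LEF1 replicate 1 to 9.32 against 9.99 in TCF1 replicate 3. The choice limits the strength of the chosen regions, and its part in these medians was not tested.

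The chosen regions often lay close to all-6 regions. The distance to the nearest all-6 region had a median of 18.1 kb, with 38.9% within 10 kb, and all-6 regions lay a median of 15.0 kb from the next of their kind, with 42.3% within 10 kb. Inside genes the medians were 14.2 kb for chosen and 9.65 kb for all-6 regions, outside genes 15.5 and 10.9 kb, and at gene ends 32.1 and 32.7 kb. The gap between the sets was thus smallest at gene ends. These distances share their landmarks and were not tested.

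Promoter windows were read for the 1371 starts that lay in a chosen region and the 3416 that lay in an all-6 region. They are from 21012 windows of protein-coding genes on 19 chromosomes, all of those used but chromosome 18. Both sets held more CpG than promoters without a region, with medians of 20 (quartiles 13 to 27), 22 (16 to 28) and 7. A promoter was called CpG-rich when at least 50% of its bases were G or C and its CpG count was at least 0.6 of that expected from its base composition. By that measure 71.6% of promoters in chosen regions were CpG-rich (exact 95% interval 69.1 to 73.9), 78.2% in all-6 regions (76.8 to 79.6) and 32.3% without a region. At a strength percentile of 60 to 70 the shares were 75.4% (69.98 to 80.4) and 87.8% (81.8 to 92.4), and at 40 to 50 they were 71.1% (64.2 to 77.4) and 77.2% (72.7 to 81.3). The share was lower for chosen regions in each of these readings, and the intervals met only at 40 to 50. No test was made.

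**Figure D4:**
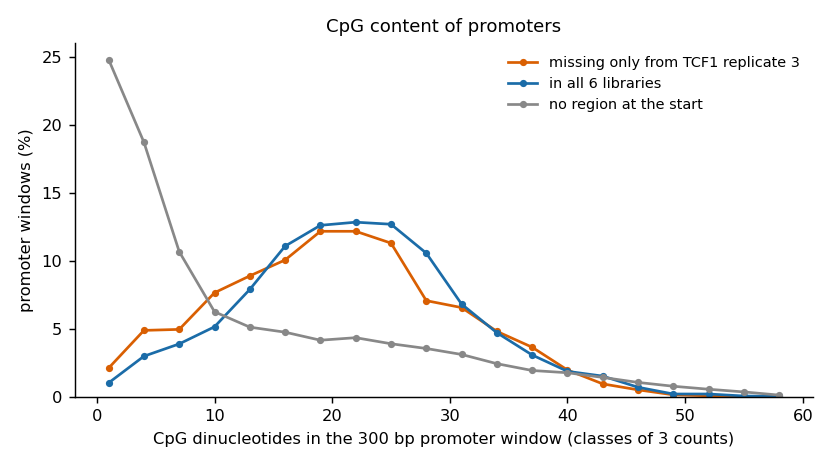
Percent of promoter windows of 300 bp by their number of CpG dinucleotides, in classes of 3 counts, for starts in regions missing only from TCF1 replicate 3, in all-6 regions and in no region. The medians are 20, 22 and 7 CpG.

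Short motifs were searched on both strands of the same windows as exact letters. The TCF/LEF core CTTTGAT was in 2.12% of promoters in chosen regions, 4.25% in all-6 regions and 3.25% of all promoters. Its other form CTTTGAA was in 4.30%, 4.51% and 4.54%, and the 2 forms share all but the last letter. The ETS core CCGGAAG, bound by factors such as ETS1 and GABPA, was in 24.7%, 22.7% and 11.7%. The GC box GGGCGGG, bound by SP factors, was in 44.6%, 53.7% and 34.2%, the CCAAT box, bound by NF-Y, in 40.9%, 51.4% and 38.5%, and the RUNX core TGTGGTT in 4.81%, 3.92% and 4.74%. The ETS core had a larger share in both sets than in all promoters. For CTTTGAT the order of the sets was not the same in every strength class, on few promoters. It was in 7 of 194 chosen and 8 of 382 all-6 promoters at a percentile of 40 to 50, in 7 of 304 and 1 of 306 at 50 to 60, and in 3 of 281 and 6 of 164 at 60 to 70. The exact intervals of the sets overlapped in all 3 classes, so no order is read from them. Motifs may overlap within a window, and a match of these letters is a description, not a site.

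By gene, 5626 of 21631 protein-coding genes (26%) had a chosen region in the gene body or within 10 kb of it, and 7400 (34.2%) had an all-6 region. Both kinds were near 3082 genes (14.2%), chosen regions alone near 2544 (11.8%) and all-6 regions alone near 4318 (20%). Longer genes can hold more regions, so counts are not comparable between genes of different length. The 11 gene lists, of T cell pathways, other lineages and broadly expressed genes, were read against these shares. All but the brain and muscle list were above the background of 26% for chosen regions. All but that list and the B cell and myeloid list were above 34.2% for all-6 regions as well. For chosen regions, 5 of 15 B cell and myeloid genes (33.3%) and 7 of 20 ribosomal and of splicing genes (35% each) were near that background on few genes, so nothing is read from them.

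In the list of 25 genes known from naive or stem-like cells, 19 had a chosen region and 23 an all-6 region, and 2, Myb and Eomes, had a chosen region alone. Of 20 genes of T cell identity and receptor signalling, 15 had a chosen region and all 20 had an all-6 region. Among 18 cytokine receptor genes the counts were 15 and 16, and Tgfbr2, a receptor for the inhibitory cytokine TGF-beta, had 7 chosen and 8 all-6 regions. Of 20 Wnt pathway genes, 10 had a chosen region and 16 an all-6 region, and Ctnnb1, encoding beta-catenin, was the 1 gene with a chosen region alone. Its region at chr9:120960505-120960866, 0.131 kb outside one end of the gene, had fold enrichments of 6.61, 11.4 and 7.27 for LEF1 and 7.77 and 5.82 for TCF1, all below the medians of the chosen regions.

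Of 30 effector and exhaustion genes, 18 had a chosen region and 21 an all-6 region. A chosen region alone was near 6 of these 30, against 11.8% of all genes. The count was 4 of 20 for ribosomal protein genes, 3 of 20 for mitochondrial respiration genes and 2 of 15 for B cell and myeloid genes, so nothing here is particular to effector genes. The 6 were Zeb2, Lag3, Nr4a2, Gzma, Ifng and Tbx21. Zeb2, for a transcription factor of terminal effector cells, had 3 chosen regions, all outside the gene. The strongest of them, chr2:44981616-44982052, lay 1.62 kb from the gene and had fold enrichments of 17.7, 25.8 and 12.5 for LEF1 and 13.9 and 12.9 for TCF1. Lag3, an inhibitory receptor, had 2 in the flank of the gene, and chr6:124900444-124901355 had 19.6, 29.3 and 17.7 for LEF1 and 19.1 and 17.5 for TCF1. That region was the strongest near any of the 6 genes, in each of the 5 libraries. Ifng, the gene for interferon gamma, had a weak region 0.215 kb from one end (chr10:118440645-118440906), with 7.65, 11.0 and 5.70 for LEF1 and 6.78 and 5.72 for TCF1. Gzma, for granzyme A, had one 0.081 kb outside one end and inside another gene, Cdc20b (5.87, 9.72, 6.71, 6.24 and 5.85). Tbx21, for T-bet, had one 1.75 kb outside the gene (8.74, 11.4, 8.63, 8.62 and 6.41). The regions at Ifng and Gzma were below the medians of the chosen regions in all 5 libraries, and that at Tbx21 in all but LEF1 replicate 3. These 6 genes are named because of this count, after it was seen.

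In lists of genes with broad expression, as in the T cell lists, fewer genes had a chosen region than an all-6 region. Splicing and RNA processing genes had a chosen region at 7 of 20 and an all-6 region at 15 of 20, ribosomal protein genes at 7 and 12 of 20, and mitochondrial respiration genes and DNA replication and cell cycle genes each at 8 and 11 of 20. Of 15 B cell and myeloid genes, 5 (33.3%) had a chosen region and 4 (26.7%) an all-6 region, against 26% and 34.2% of all genes. Both shares are near those backgrounds on few genes, so no direction is read from them. Pax5 and Spi1 had a chosen region alone. Of 20 brain and muscle genes 3 had a chosen region and 2 an all-6 region. Cd8b1, which marks CD8 T cells, and Cd3e, which marks T cells, had 5 and 3 chosen regions. Cd8a, Cd3d and Cd3g had 0, with 4, 3 and 5 all-6 regions. Of the defining genes of other lineages that are given here, Cd79a had 1 chosen region and Cd14 and Ncr1 had 0. Over all regions near the genes of a list, chosen regions made up 29.0% (splicing) to 45.5% (B cell and myeloid) of both kinds and 3 of 6 for brain and muscle genes, against 41.2% over all genes.

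**Figure D5:**
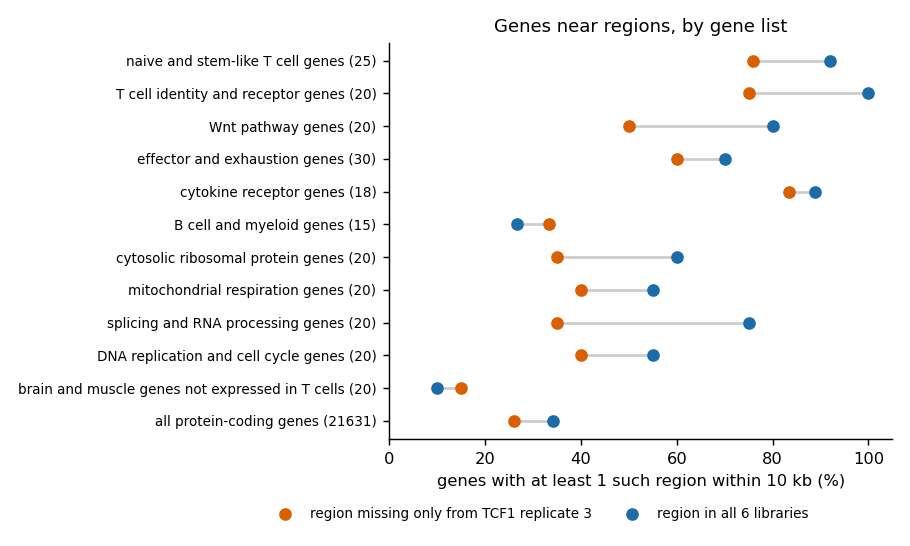
Percent of the genes of each list (number of genes in brackets) with at least 1 region in the gene body or within 10 kb, for regions missing only from TCF1 replicate 3 and regions in all 6 libraries. Over all protein-coding genes the shares are 26% and 34.2%, and for T cell identity genes they are 15 and 20 of 20.

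The genes with the most chosen regions were long. Foxp1, a forkhead factor that keeps T cells quiescent, had 16 beside 22 all-6 regions over 597 kb, and none of the 16 was at a gene end. Ankrd44, Pip4k2a and Ubac2 had 12 each, beside 5, 4 and 18 all-6 regions. Akap13, Arhgef3 and the T cell adaptor gene Grap2 had 11 each, and Hecw2, the RNA-binding protein gene Mbnl1 and Ets1 had 10. Ets1, whose product is an ETS factor of lymphocytes, had 9 all-6 regions. Its strongest chosen region, chr9:32728235-32728813, lay inside the gene, with fold enrichments of 13.8, 22.6 and 15.7 for LEF1 and 12.8 and 11.8 for TCF1. At Foxp1 the strongest by mean percentile, chr6:99368002-99368550, had 18.2, 24.6 and 13.2 for LEF1 and 17.1 and 12.3 for TCF1.

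The genes of the 2 factors themselves had chosen regions. Lef1 had 9 beside 11 all-6 regions, and of the 9, 7 lay inside the gene, 1 at its end and 1 outside. The strongest, chr3:131167632-131168296, lay 56.4 kb from the nearer end and had fold enrichments of 17.3, 19.7 and 17.4 for LEF1 and 14.9 and 11.6 for TCF1. A weaker one, chr3:131109493-131110329, lay 0.418 kb outside one end, with 13.3, 19.8 and 9.82 for LEF1 and 12.9 and 10.7 for TCF1. Tcf7 had 4 beside 7 all-6 regions. The strongest of these, chr11:52279615-52281449, lay inside the gene 3.41 kb from one end and had 11.4, 16.5 and 10.6 for LEF1 and 12.5 and 8.42 for TCF1. Its remaining 3 regions had fold enrichments of 6.46 to 15.3 over the 5 libraries.

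Other genes of the naive state differed in how many they had. Bach2, a repressor of effector genes, had 8 chosen and 17 all-6 regions, all 8 inside the gene, and Bcl2, for a survival protein, had 6 and 8. Satb1, a chromatin organiser, had 6 and 9, and Ccr7, the receptor for homing to lymph nodes, had 5 and 5. Foxo1, a factor upstream of homing genes, had 5 chosen regions and 1 all-6 region.

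No chosen region lay within 10 kb of Axin2, Cd8a, Id2, Id3, Il7r, Klf2 or S1pr1, which had 1 to 4 all-6 regions. Tox, an exhaustion factor, had 3 chosen and 4 all-6 regions, and 2 of the 3 were at one end of the gene. Prdm1, for the effector repressor BLIMP1, had 2 and 4, and Myc had 2 and 2. Eomes, for a T-box factor of memory and effector cells, had 1 chosen region and no all-6 region, 3.62 kb outside the gene, with fold enrichments of 7.26, 12.5 and 7.11 for LEF1 and 8.40 and 4.97 for TCF1. Both T-box genes, Eomes and Tbx21, thus had 1 region of the chosen kind and none of the other.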

How the data were processed

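The files used are CUT&RUN peak lists, 3 for LEF1 and 3 for TCF1, and groups and replicate numbers came from the sample titles. The submitters' processing notes name MACS3 3.0.3, Bowtie2 2.4.4, Trim Galore 0.6.6, deepTools 3.5.1, FastQC 0.12.1 and Picard, and the build GRCm38.p6. Neither the caller's options nor its control is given in the sources used here. The authors called peaks per library, as the deposited peak names show. The deposited fold enrichment is a ratio of summit signal to local background. Every deposited p-value or q-value is a −log10 value, and the deposited score, not used here, is a whole number. All of these are the authors' values and served to rank, filter or describe peaks within their own list. A longer list holds more regions, so list length bears on which regions are missing.

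Read totals are unknown. Depth relative to the control was read from the steps of fold enrichment at peaks with a background of 1, where 91.3% to 99.8% of values fell on whole steps within 0.02.

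Distinct intervals on chromosomes 1 to 19 and X were merged, leaving out 209 of 148909 on other sequences. Genes and promoter windows came from RefSeq tables, and all 228 genes of 11 lists were matched. Shares have exact binomial 95% intervals for counting error only. Tests were Fisher's exact test on region counts and an exact permutation test over libraries (Python 3.11.15, numpy 2.4.6, pandas 2.3.3, scipy 1.17.1, matplotlib 3.10.9). On simulated lists with 200 planted regions, spaced apart and without stray peaks, 100% were recovered and 0 were wrong. That checks the merging and choosing steps only, not how cleanly the real lists separate.

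The regions, the gene lists and the named genes were chosen with earlier results of these data known. Named genes are 20 set T cell genes, the 10 with the most chosen regions, those nearest to the 10 strongest chosen regions and to the 5 strongest at gene ends and outside genes, and up to 3 genes a list. Several of these are given only as counts, and some are not reported here. Promoters printed are those wholly in the strongest gene-end regions. Chosen after values were seen were the strength classes, the motif letters and CpG definition, the rule on start bases, the pair of weak all-6 promoters, the comparison of gene ends with outside by library and the permutation test over libraries. Alternatives were other merging, cover, threshold and distance settings, equal list lengths, and each library left out in turn.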

Additional observations from a re-analysis of the deposited data

How the results depend on the processing

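The number of chosen regions rests on list length: with every list cut to 11418 peaks it was 758 in place of 8183, and 5030 of the 8183 (61.5%) had no peak among those top peaks in any of the 5 libraries. The other 8 alternatives gave 7633 to 9536. Leaving out a library in turn gave 8231 (without LEF1 replicate 2) to 9536 (without TCF1 replicate 2), and without TCF1 replicate 3 the choice cannot be made. The share of genes with a chosen region, 26.0%, became 3.47% with equal lists, 17.3% for gene bodies alone and 45.25% within 50 kb. The difference in gene-end share kept its direction in all 17 alternatives. It was -7.69 (without LEF1 replicate 3) to -10.25 points (without TCF1 replicate 2) when a library was left out and -6.20 with gene ends within 5 kb. It was -5.53 with equal lists, -30.9 matched on strength, -20.2 on TCF1 strength and -18.2 on width, where the last 2 and the count from gene starts (-9.35) were added after seeing the data. The gene-end share of regions missing from 1 equal list, TCF1 minus LEF1, was -28.7 points. With differences within replicate number as a replicate block, added after seeing the data, it was -28.7 ± 13.0 (SD, n = 3 pairs), negative in all 3, with an exact two-sided permutation p of 0.25, the smallest that 3 pairs can give. Nothing in the labels says that the numbers pair the libraries. Each of these sets is defined by all 6 lists, so the SD and the p do not measure spread between independent libraries. Leaving out a library in turn gave -35.3 (without LEF1 replicate 3) to -23.9 (without LEF1 replicate 2). The chosen regions themselves have no such fit, since they were chosen by presence in these libraries. Absence from a list is not absence of signal: the signal of TCF1 replicate 3 outside its peaks was not analysed here, and with read totals unknown, what depth limits was not tested.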
